A study of Mus musculus with 2 samples.

Results

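Nos2 and Cxcl9 macrophages of mouse tumours were followed in 2 single-cell RNA libraries, 1 from CD94-KO mice and 1 from wild-type (WT) mice. The cells were selected by transcript counts (unique molecular identifiers, UMIs). A barcode needed at least 1000 UMIs and under 10% mitochondrial UMIs, at least 3 UMIs of C1qa, C1qb, C1qc and Csf1r together, at least 5 of Lyz2 and at least 10 of Nos2 and Cxcl9 together. It also had to hold fewer than 10 UMIs of Arg1, none of Cd3d, Cd3e or Cd3g, and at most 2 of Cd209a, Flt3 and Kmo together. This gate held 409 of 10533 barcodes, 286 from the CD94-KO library and 123 from the WT library, and 7642 barcodes passed the UMI and mitochondrial limits. Splitting the same macrophage base by Nos2 plus Cxcl9 and by Arg1 gave 3 neighbouring gates for comparison. These were Arg1-high cells (630), double-high cells with both at or above 10 UMIs (267), and double-low cells with both below (1098).

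CD94, encoded by Klrd1, is a lectin-like subunit of inhibitory and activating receptors on natural killer (NK) and T cells. Each library came from live CD45+ (7AAD-negative) cells sorted out of subcutaneous tumours of 5 tumour-bearing mice, C57BL/6J background, 6 to 8 weeks old, CD94-KO in one group and WT (C57BL/6J) in the other. The libraries used droplet-based 3′ chemistry from 10x Genomics. With 1 library per genotype, and mice pooled within it, no test between genotypes was possible, and every interval given here covers counting error only.

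Macrophages that meet interferon gamma transcribe guanylate-binding proteins, the CXCR3 ligands Cxcl9 and Cxcl10 and the genes of antigen presentation. Nos2, the inducible nitric oxide synthase, uses arginine to make nitric oxide, and Arg1 competes for the same arginine. Promoters of interferon-induced genes often carry gamma-activated sites (GAS) or interferon-stimulated response elements (ISRE), and IRF factors bind ISRE.

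Promoters of 5 interferon-induced genes are shown because these genes set the gate apart from Arg1-high cells or belong to its 5 marker genes (Nos2, Cxcl9, Rsad2, Ly6i and Cfb). The sequences are the 250 bases before the start, from RefSeq on GRCm38.p6: Cxcl9 at chr5:92328080-92328329 on the minus strand, Cxcl10 at chr5:92348890-92349139 on the minus strand, Gbp2 at chr3:142620413-142620662 on the plus strand, Gbp5 at chr3:142496684-142496933 on the plus strand and Rsad2 at chr12:26456453-26456702 on the minus strand. Each runs 5′ to 3′ along the gene, and capitals mark matches on either strand to GAAANNGAA (ISRE-like) or TTCNNNGAA (GAS).
Cxcl9: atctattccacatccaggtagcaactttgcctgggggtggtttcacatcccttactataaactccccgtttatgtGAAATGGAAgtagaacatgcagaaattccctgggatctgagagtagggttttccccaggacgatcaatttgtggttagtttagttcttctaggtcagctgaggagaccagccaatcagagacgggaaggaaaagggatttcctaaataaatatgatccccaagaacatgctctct
Cxcl10: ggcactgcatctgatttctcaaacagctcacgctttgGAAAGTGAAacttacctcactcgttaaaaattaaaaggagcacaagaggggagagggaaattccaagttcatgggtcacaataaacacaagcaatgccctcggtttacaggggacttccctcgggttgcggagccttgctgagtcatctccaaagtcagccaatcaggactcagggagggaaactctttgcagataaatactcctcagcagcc
Gbp2: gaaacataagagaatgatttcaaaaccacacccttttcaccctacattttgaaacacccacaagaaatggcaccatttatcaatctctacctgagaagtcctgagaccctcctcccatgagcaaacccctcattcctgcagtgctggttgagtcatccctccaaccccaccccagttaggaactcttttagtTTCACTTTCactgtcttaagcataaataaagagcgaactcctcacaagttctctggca
Gbp5: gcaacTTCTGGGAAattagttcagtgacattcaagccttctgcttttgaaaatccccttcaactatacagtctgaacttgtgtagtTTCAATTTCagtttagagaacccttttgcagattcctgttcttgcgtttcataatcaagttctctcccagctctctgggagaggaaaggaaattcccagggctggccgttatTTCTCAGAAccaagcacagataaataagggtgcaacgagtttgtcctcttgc
Rsad2: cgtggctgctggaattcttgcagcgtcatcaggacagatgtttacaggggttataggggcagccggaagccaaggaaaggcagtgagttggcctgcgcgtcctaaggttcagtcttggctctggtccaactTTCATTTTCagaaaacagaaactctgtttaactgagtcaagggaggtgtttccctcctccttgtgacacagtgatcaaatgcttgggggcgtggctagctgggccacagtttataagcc

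All 5 windows held 1 ISRE-like match, which ended 166 bases before the start in Cxcl9, 204 in Cxcl10, 49 in Gbp2, 155 in Gbp5 and 110 in Rsad2. Gbp5 also held 2 GAS matches. The 5 genes are a choice and do not stand for all genes of the gate. Of the 10 genes highest in the gate over Arg1-high cells, 5 had a promoter entry, and 4 of these held an ISRE-like match. The one without, Serpina3g, also set the gate apart from Arg1-high cells but is not among the sequences shown. Of genes looked up but not shown, Cd274 held 1 ISRE-like match, and Serpina3g, Irf1 and Ly6c2 held none. Serpina3g held 1 GAS match, as did 1 of the listed Irf1 starts, and Ly6c2 held none. The markers Nos2, Ly6i and Cfb had no promoter entry. Among 27025 genes with a promoter in the table, 8.18% had an ISRE-like match and 8.13% a GAS match at any listed start. In the interferon gamma response list 13 of 24 genes with a promoter had the ISRE-like letters and 10 the GAS letters, and in the type I interferon list 19 of 36 and 4. The inflammatory list had 3 and 2 of 24. A match describes letters in a window and is not evidence of a bound factor.

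The deposited libraries held 46107433 UMIs over 5175 barcodes for CD94-KO and 40261366 UMIs over 5358 barcodes for WT, and the medians per kept barcode were 8519 and 8448 UMIs. The UMI and mitochondrial limits were passed by 4431 CD94-KO and 3211 WT barcodes. Only 8 barcode sequences occurred in both libraries and 0 of them were in the gate. Klrd1, the targeted gene, was present in both libraries, at 80.1 CPM (counts per 1000000 UMIs; 95% Poisson interval 77.5 to 82.8) in CD94-KO kept barcodes and 148 CPM (144 to 152) in WT. The deleted part of the gene is not given, so these 3′ counts do not check the label. Inside the gate, Klrd1 stood at 13 CPM (44 UMIs) in CD94-KO and 36.9 CPM (59 UMIs) in WT.

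The median gate cell held 10764 UMIs from 2672.5 genes in CD94-KO, against 11062 UMIs from 2644 genes in WT. Gate cells made up 17.9% of the 1601 CD94-KO macrophage-gate cells (95% Clopper-Pearson interval 16 to 19.8%) and 15.3% of the 803 WT ones (12.9 to 18%), intervals that overlapped. Their share of all kept barcodes was 6.45% in CD94-KO (5.75 to 7.22%) and 3.83% in WT (3.19 to 4.55%), where macrophage gates together took 36.1% and 25%. The Cd3 limit removed unequal parts of the libraries. Kept barcodes that met the C1q or Csf1r, Lyz2 and Nos2 plus Cxcl9 minimums numbered 598 in CD94-KO and 318 in WT. Of these 89 and 111 held a Cd3 UMI. The part of this limit in the shares was not tested. For each double-low cell there were 0.414 gate cells in CD94-KO (0.36 to 0.476) and 0.301 in WT (0.244 to 0.37). Per Arg1-high cell the CD94-KO library held 0.664 gate cells (0.569 to 0.772) and the WT library 0.618 (0.49 to 0.778). Per double-high cell the CD94-KO library held 1.47 (1.22 to 1.78) and the WT library 1.68 (1.25 to 2.28). Among these 3 ratios the CD94-KO value was thus higher against double-low and Arg1-high cells and lower against double-high cells, with intervals that overlapped in each.

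The label was set beside the values of its marker genes. Cxcl9 defined the gate far more than Nos2 did: a Cxcl9 UMI was found in 99.3% of CD94-KO and 99.2% of WT gate cells, a Nos2 UMI in 50% and 26%. Cells with at least 10 UMIs of Cxcl9 and fewer of Nos2 numbered 221 of 286 in CD94-KO and 113 of 123 in WT. Cells with 10 or more of both numbered 43 and 5, cells with Nos2 alone at that level 13 and 4, and cells that reached 10 only by the sum 9 and 1. The per-cell median was 0.5 Nos2 UMIs (highest 57) in CD94-KO and 0 (highest 32) in WT, and 30 Cxcl9 UMIs (0 to 293) in CD94-KO against 33 (0 to 250) in WT. The name holds for Cxcl9 in nearly every cell and for Nos2 in a part of them. Both genes were used by the selection, so these values are a description.

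**Figure D1:**
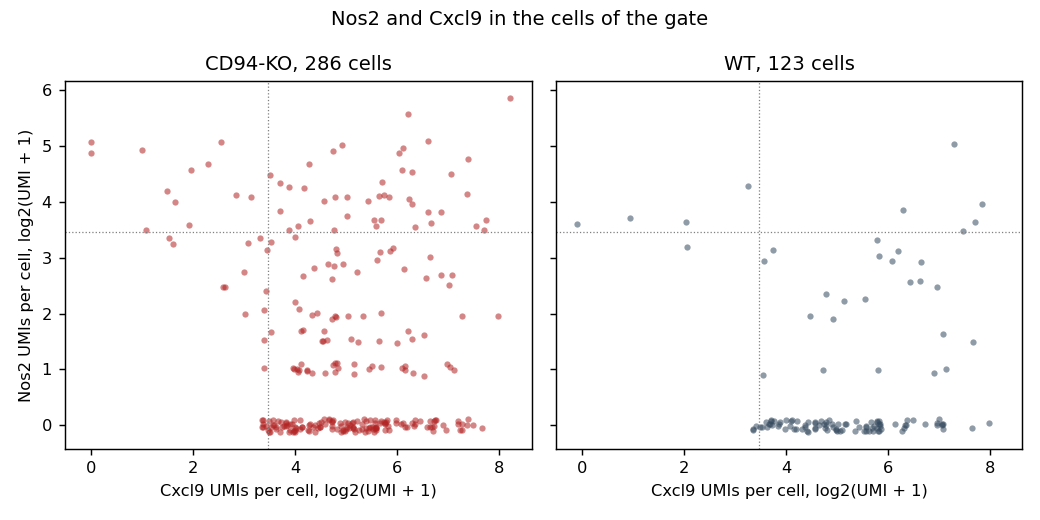
Nos2 UMIs against Cxcl9 UMIs in each gate cell on log2(UMI + 1) axes, 286 CD94-KO cells on the left and 123 WT cells on the right, with small random offsets so that points do not overlie each other. Dotted lines mark 10 UMIs. Most cells lie to the right of the vertical line with few or no Nos2 UMIs, and 43 CD94-KO and 5 WT cells lie at or above both lines.

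The other 3 markers were not part of the selection and were each present in a fraction of the cells. They were chosen with earlier results of these data known, so their values are a description and no independent check of the label. After thinning every cell to 5000 UMIs (276 CD94-KO and 120 WT cells, with 10 and 3 shallower cells left out), Ly6i, an interferon-inducible Ly6 surface protein, had a UMI in 72.8% of CD94-KO gate cells (67.2 to 78%) and 56.7% of WT ones (47.3 to 65.7%). Without thinning these were 80.4% and 67.5%. Cfb, complement factor B of the alternative pathway, had one in 46% (40 to 52.1%) and 35.8% (27.3 to 45.1%), and unthinned in 62.9% and 49.6%. Rsad2, the antiviral protein viperin, had one in 29.7% (24.4 to 35.5%) and 35% (26.5 to 44.2%), and unthinned in 36.4% and 42.3%. Barcodes with NK transcripts and no C1q or Csf1r UMI were counted at the same thinning for a partial view of free RNA. There Ly6i was seen in 5.33% of CD94-KO and 4.37% of WT barcodes, Cfb in 0.889% and 0.546%, Rsad2 in 5.78% and 2.73%, Nos2 in 5.33% and 0.546%, and Cxcl9 in 13.3% and 12%. Their median depth was 6725 UMIs in CD94-KO and 7756 in WT. Requiring no C1q or Csf1r UMI also left out NK barcodes that had taken up these macrophage transcripts. The shares can thus understate free RNA and do not set its level. All 5 markers together had a UMI in 45 of 286 CD94-KO cells and in 9 of 123 WT cells. Without thinning, that was 15.7% and 7.32% of gate cells, against 19.6% and 17.8% of double-high cells. Double-high cells were deeper, with medians of 14281 UMIs in CD94-KO and 15825 in WT. At 5000 UMIs per cell, Ly6i had a UMI in 69.1% of CD94-KO and 54.2% of WT double-high cells. Cfb had one there in 35.1% and 20.8%, and Rsad2 in 28.8% and 22.2%.

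By summed level, Nos2 stood at 401 CPM in CD94-KO cells and 149 CPM in WT gate cells, against 50.3 and 37.3 CPM in Arg1-high cells and 20.9 and 9.04 CPM in double-low cells. Double-high cells held more, 627 and 268 CPM. Cxcl9 stood at 3946 CPM in CD94-KO cells and 4146 CPM in WT gate cells, against 2508 and 2307 CPM in double-high cells, 66.1 and 57.9 CPM in Arg1-high cells, and 93 and 127 CPM in double-low cells. Ly6i was at 712 and 427 CPM in the gate, at 585 and 328 CPM in double-high cells, at 112 and 64.1 CPM in Arg1-high cells, and at 169 and 129 CPM in double-low cells. Cfb was at 169 and 116 CPM in the gate and between 18.3 and 93.2 CPM in the other gates. Rsad2 was not highest in the gate: 183 and 131 CPM there, against 236 and 180 CPM in double-high cells. The gate held 25.5% of all Nos2 UMIs of kept barcodes in CD94-KO and 17.8% in WT, and 37.7% and 28.7% of Cxcl9 UMIs. A further 37.2% of Cxcl9 UMIs in CD94-KO and 54.5% in WT lay outside the macrophage gates altogether.

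**Figure D2:**
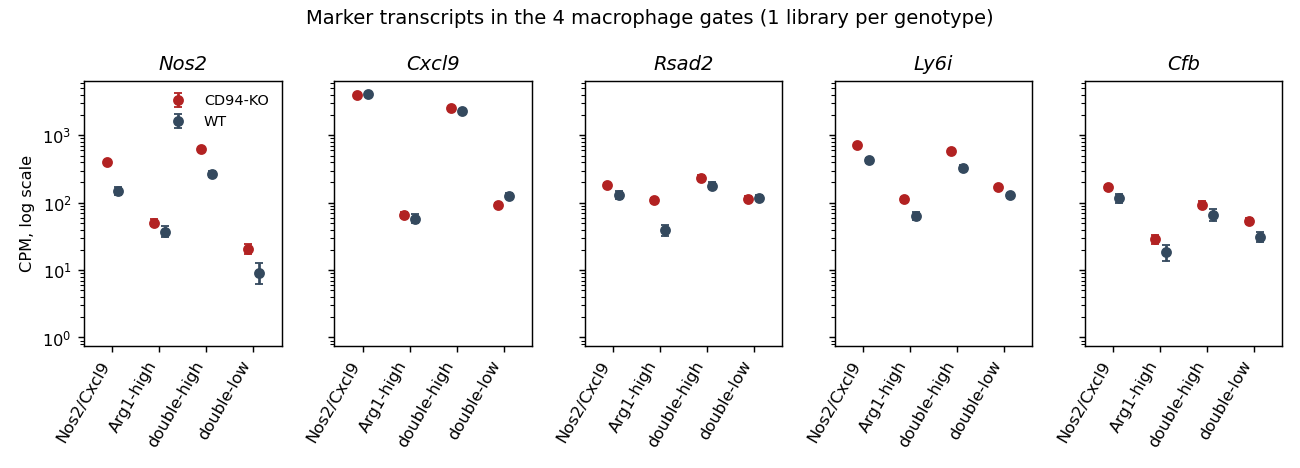
Level of the 5 marker transcripts in the 4 macrophage gates, in CPM on a log scale, with CD94-KO in red to the left of WT in dark blue and 95% Poisson intervals as bars. Nos2 and Cxcl9 were used to choose the gates. Ly6i is highest in the Nos2/Cxcl9 gate in both libraries, at 712 and 427 CPM, and Rsad2 is higher in double-high cells.

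Cells close to the limits were also compared, as a description. CD94-KO cells with 10 to 12 UMIs of Nos2 plus Cxcl9, just inside, numbered 31 and had 599 CPM of Ly6i and 785 CPM of Ccl5, and the 28 cells with 7 to 9 UMIs, just outside, had 297 and 401 CPM. In WT the 15 cells just inside had 730 and 827 CPM and the 22 just outside 256 and 286 CPM. Cfb was also higher just inside, at 156 against 135 CPM in CD94-KO and 160 against 47 CPM in WT. Rsad2 and Gbp5 had opposite directions in the libraries: Rsad2 had 189 CPM just inside and 100 CPM just outside in CD94-KO, and 137 and 474 CPM in WT, and Gbp5 had 76.7 and 62.2 CPM in CD94-KO, and 57 and 103 CPM in WT. At the Arg1 limit, CD94-KO cells just inside (17) and just outside (14) had 389 and 521 CPM of Ly6i, and WT cells (11 and 6) had 466 and 285 CPM. Rsad2 had 141 and 539 CPM there in CD94-KO, and 37.6 and 21.9 CPM in WT, and Ccl5 had 948 and 1157 CPM in CD94-KO, and 669 and 219 CPM in WT.

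Set against Arg1-high cells within each library, 306 of 10197 genes measured (3%) were at least 1.5-fold higher in the gate in both libraries and 201 (1.97%) at least 1.5-fold lower. These folds are on CPM plus 5, for genes with at least 20 UMIs over the sums compared. In the interferon gamma response list, 30 of 35 measured genes were higher in both libraries and 0 lower, with a median log2 difference of 1.26 in CD94-KO and 1.31 in WT, while the median of all genes was -0.04 and -0.02. Gbp2, a guanylate-binding protein, had 1395 CPM in the gate and 339 CPM in Arg1-high cells of CD94-KO, and 1144 and 218 CPM in WT. Gbp5, of the same family, had 134 and 20.6 CPM in CD94-KO and 98.9 and 12.4 CPM in WT. Cxcl10, a CXCR3 ligand like Cxcl9, had 1179 and 243 CPM in CD94-KO and 1289 and 289 CPM in WT. Cd274, the checkpoint ligand PD-L1, had 503 and 216 CPM in CD94-KO and 377 and 157 CPM in WT. Cxcl9, itself an interferon gamma target, was used to choose the cells, so differences between the gates are descriptions and were not tested.

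Type I interferon genes were higher in 33 of 44 cases, with medians of 0.87 and 1.02. Of 23 MHC class I genes 17 were higher in both libraries (medians 0.94 and 0.82), and of 13 MHC class II genes 8 were higher and 1 was lower (medians 0.83 and 0.76). H2-Ab1, a class II beta chain, had 6689 CPM in the gate and 2727 CPM in Arg1-high cells of CD94-KO, and 5422 and 2494 CPM in WT. B2m, the class I light chain, had 5427 and 3114 CPM in CD94-KO and 4329 and 2698 CPM in WT. Lgmn, the lysosomal protease legumain, went the other way, with 241 and 439 CPM in CD94-KO and 222 and 368 CPM in WT.

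The inflammatory list differed less, with 7 of 30 genes higher and 1 lower (medians 0.28 and 0.23). Il1b, the cytokine interleukin-1 beta, was similar in both gates, at 6366 against 5369 CPM in CD94-KO and 6228 against 6230 CPM in WT. Cd40, a costimulatory receptor, had 118 against 23.6 CPM in CD94-KO and 124 against 24.5 CPM in WT. Ccl5, a chemokine that attracts T cells, had 1341 against 218 CPM in CD94-KO and 722 against 171 CPM in WT. NK barcodes of these libraries held 3257 CPM of Ccl5 in CD94-KO and 2951 CPM in WT, and the part of free RNA in the Ccl5 values was not tested. Ass1, argininosuccinate synthase, which regenerates arginine from citrulline, had 388 against 145 CPM in CD94-KO and 392 against 179 CPM in WT. In the arginine list 1 of 18 genes was higher, and the 1 lower gene was Arg1, which the selection fixes.

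Of 19 chemokine ligands 10 were at least 1.5-fold lower and 5 higher in both libraries, with medians of -1.35 and -1.36. Cxcl2, a neutrophil-attracting chemokine, had 4886 CPM in the gate and 10185 CPM in Arg1-high cells of CD94-KO, and 4168 and 11166 CPM in WT. Ccl7, a monocyte attractant, had 61.3 and 336 CPM in CD94-KO and 16.3 and 257 CPM in WT. Pf4, platelet factor 4, had 36.7 and 356 CPM in CD94-KO and 25.7 and 344 CPM in WT. Of 23 matrix genes 8 were lower and 0 higher. Fn1 (fibronectin) had 667 and 3022 CPM in CD94-KO and 638 and 3320 CPM in WT, Spp1 (osteopontin) 354 and 2026 CPM in CD94-KO and 248 and 2012 CPM in WT, and Mmp12 (macrophage elastase) 69.3 and 463 CPM in CD94-KO and 107 and 659 CPM in WT. Of 23 alternative activation genes 9 were lower and 3 higher. Mrc1, the mannose receptor CD206, had 39.1 and 383 CPM in CD94-KO and 30.7 and 210 CPM in WT. Il1rn, the interleukin-1 receptor antagonist, was higher, with 1153 and 513 CPM in CD94-KO and 911 and 458 CPM in WT.

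Of 28 genes of monocyte origin 14 were higher and 2 lower than in Arg1-high cells, with medians of 0.64 in both libraries. Ly6c2, the classical monocyte marker, had 1442 and 458 CPM in CD94-KO and 913 and 270 CPM in WT. Plac8 had 3817 and 1251 CPM in CD94-KO and 2991 and 879 CPM in WT. The 8 monocyte markers summed to 6525 CPM in the CD94-KO gate and 5047 CPM in the WT gate. Their sums were 2786 and 2065 CPM in Arg1-high cells, 3747 and 2481 CPM in double-high cells, and 6757 and 5100 CPM in double-low cells. The 10 macrophage markers, some of which the selection used, summed to 4543 and 4326 CPM.

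**Figure D3:**
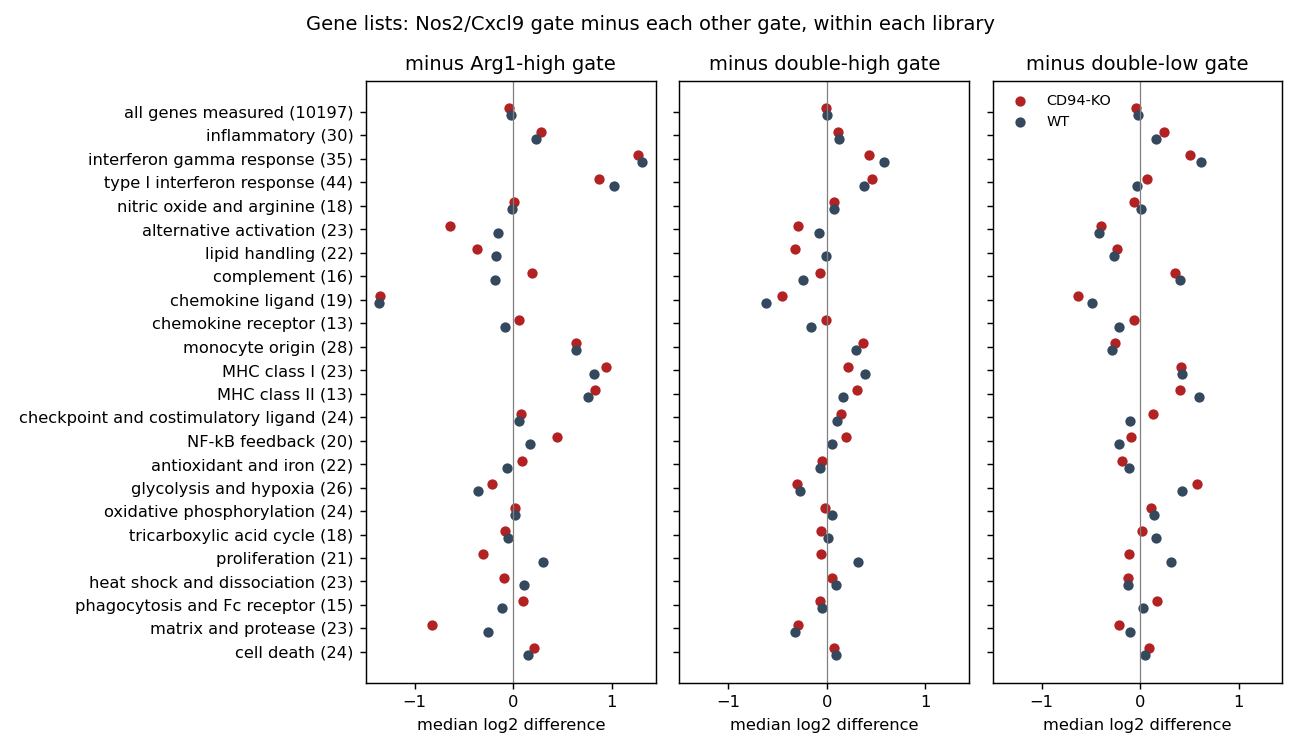
Median difference in log2(CPM + 5) of each gene list, Nos2/Cxcl9 gate minus Arg1-high, double-high and double-low gate in 3 panels, with CD94-KO in red and WT in dark blue and the number of genes measured against the Arg1-high gate in parentheses. The interferon gamma list lies at 1.26 and 1.31 in the first panel and at 0.51 and 0.62 in the last, and the chemokine ligand list at -1.35 and -1.36 in the first.

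Fewer genes lay past 1.5-fold against double-high cells than against the other gates. Of 9597 genes measured 64 (0.667%) were at least 1.5-fold higher in the gate in both libraries and 76 (0.792%) lower. Interferon gamma genes were higher in 7 of 35 cases (medians 0.43 and 0.58) and monocyte-origin genes in 7 of 28. Ly6c2 had 1442 CPM in the gate and 640 CPM in double-high cells of CD94-KO, and 913 and 361 CPM in WT. Serpina3g, a serine protease inhibitor, had 82.9 and 34.5 CPM in CD94-KO and 148 and 49.1 CPM in WT. Pdpn, podoplanin, had 94.8 and 315 CPM in CD94-KO and 76.4 and 393 CPM in WT. Chemokine ligands were lower in 7 of 19 cases.

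Ly6c2 was close to its level in double-low cells, 1442 CPM in the gate and 1527 CPM there in CD94-KO, and 913 and 960 CPM in WT. Against double-low cells 129 of 10374 genes (1.24%) were higher in the gate in both libraries and 146 (1.41%) lower. Of 28 monocyte-origin genes 3 were higher and 4 lower, with medians of -0.26 in CD94-KO and -0.29 in WT. Of the 8 monocyte markers 0 were higher and 3 lower, with medians of -0.64 and -0.44. Interferon gamma genes were higher in 11 of 35 cases (medians 0.51 and 0.62), whereas type I interferon genes were higher in 2 of 44 (medians 0.07 and -0.03). Glycolysis and hypoxia genes were higher in 5 of 26 cases, with medians of 0.58 and 0.42. Gapdh, a glycolytic enzyme, had 3055 CPM in the gate and 1929 CPM in double-low cells of CD94-KO, and 2570 and 1911 CPM in WT. Upp1, uridine phosphorylase, had 310 and 87.1 CPM in CD94-KO and 245 and 83.2 CPM in WT. Iigp1, an immunity-related GTPase, had 147 and 53.1 CPM in CD94-KO and 96.4 and 25.8 CPM in WT. Heat shock genes Hspa1a and Hspa1b, F13a1 and Ifitm6 were among the 10 with the largest deficits in the gate.

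CD94-KO and WT cells were compared inside the gate. Of 8508 genes with at least 20 UMIs over both sums, 312 (3.67%) were at least 1.5-fold higher in CD94-KO and 536 (6.3%) at least 1.5-fold lower. One WT barcode held 96256 UMIs and 7985 genes, 6.02% of all WT gate UMIs, against 34887 UMIs in the next WT cell. That barcode met the rule with 61 Cxcl9, 7 Lyz2 and 3 C1q or Csf1r UMIs but held 0 Ptprc (CD45) UMIs, and it carried 92.2% of the fibroblast marker UMIs and 87.9% of the epithelial marker UMIs of the WT gate. Without it, 247 genes were lower in CD94-KO. Without the 5% of gate cells with the most UMIs in each library, 363 of 8064 genes were higher and 230 lower. The ratios given are CPM ratios of CD94-KO over WT with exact binomial intervals.

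Nos2 differed more than the other markers. It stood at 401 CPM (1353 UMIs) in CD94-KO and 149 CPM (238 UMIs) in WT, a ratio of 2.69 (2.34 to 3.1), and 2.68 without the deepest cells. The share of cells with a Nos2 UMI at 5000 UMIs per cell was 44.2% in CD94-KO (38.3 to 50.3%) and 20% in WT (13.3 to 28.3%). Cxcl9 had a ratio of 0.952 (0.924 to 0.98). The Nos2 ratio was 2.34 (2.09 to 2.62) in double-high cells, 2.31 (1.58 to 3.46) in double-low cells and 1.35 (1.08 to 1.69) in Arg1-high cells, so its direction was the same in all 4 gates. NK barcodes held 8.92 CPM of Nos2 in CD94-KO and 3.19 CPM in WT. Nos2 was part of the selection, so its levels inside the gate are a description.

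Ly6i had 712 CPM in CD94-KO cells and 427 CPM in WT, a ratio of 1.67 (1.53 to 1.82), and 1.56 without the deepest cells. Cfb had a ratio of 1.46 (1.23 to 1.73) and Rsad2 of 1.4 (1.19 to 1.64). Without the deepest cells the Rsad2 ratio was 1.18 (0.999 to 1.39). Ccl5 had 1341 CPM in CD94-KO cells and 722 CPM in WT, a ratio of 1.86 (1.74 to 1.98) against 1.28, 1.39 and 1.19 in Arg1-high, double-high and double-low cells. Grina, a membrane protein of the TMBIM family, had 546 and 288 CPM, a ratio of 1.9 (1.71 to 2.11), and ratios of 1.28, 1.6 and 1.2 in the other gates. Fpr2, a formyl peptide receptor, had 82.3 and 43.8 CPM, a ratio of 1.88 (1.44 to 2.48). Ly6c2 had 1442 and 913 CPM, a ratio of 1.58 (1.49 to 1.68), and between 1.59 and 1.77 in the other gates. Without the deepest cells the Ly6c2 ratio was 1.43 (1.35 to 1.52), under 1.5-fold. The remaining genes of the 12 with the largest excess in CD94-KO were Ccl7, Cxcl3, Nceh1, Areg, Nrp1, Hspa1b, S100a9 and Gzmc. Areg had a ratio of 1.11 and Hspa1b of 1.47 without the deepest cells, against 2.07 and 1.84 with them. With gates set on thinned cells, Areg and Cxcl3 were lower in CD94-KO, with log2 differences of -0.29 and -0.82. Ccl7 had 61.3 and 16.3 CPM, a ratio of 3.77 (2.5 to 5.91), and 1.31, 1.35 and 1.37 in Arg1-high, double-high and double-low cells. For S100a9, a neutrophil alarmin, 5 cells held 94.2% of CD94-KO UMIs, and for Gzmc, a granzyme of cytotoxic lymphocytes, 91.9%.

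Of the 12 genes with the largest deficit in CD94-KO, Mt2, Stmn1, Srm and Tpm1 were found mostly in few WT cells: 5 cells held 93.2%, 88.6%, 67.9% and 91.5% of their WT UMIs. The single deepest WT barcode held 77.1% of Mt2 and 83% of Tpm1 UMIs. Without the deepest cells Mt2 had a ratio of 0.654, against 0.154 with them, and Tpm1 1.34, against 0.247. Mgl2, a C-type lectin of alternatively activated macrophages and dendritic cells, had 30.8 CPM in CD94-KO cells and 158 CPM in WT, a ratio of 0.195 (0.154 to 0.246), and 0.209 without the deepest cells. Lpl, lipoprotein lipase, had 14.2 and 73.2 CPM, a ratio of 0.194 (0.136 to 0.274). Ccl17, a ligand of CCR4, had 86.5 and 294 CPM, a ratio of 0.294 (0.253 to 0.341). For Ccl17, 5 cells held 88% of CD94-KO and 84.5% of WT UMIs. Fkbp4, Slc25a4, Fdps, C1qbp and Nop58 complete the 12, with ratios of 0.337 to 0.467, and C1qbp and Slc25a4 came to 0.75 and 0.72 without the deepest cells.

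**Figure D4:**
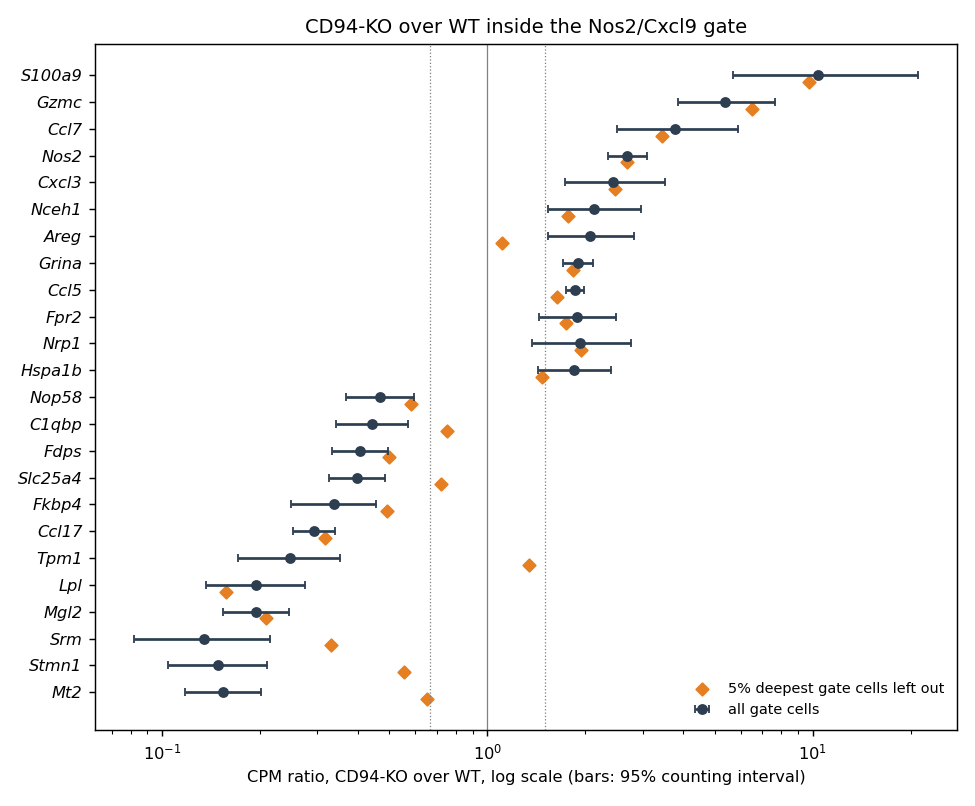
CPM ratio of CD94-KO over WT inside the gate on a log axis for the 12 genes with the largest excess and the 12 with the largest deficit in CD94-KO. Circles with 95% counting intervals use every gate cell and orange diamonds leave out the 5% deepest cells. Dotted lines mark 1.5-fold in each direction. Without the deepest cells Tpm1 lies at 1.34, on the other side of equality, Mt2 at 0.654 and Nos2 at 2.68.

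By list, type I interferon genes had a median log2 difference of 0.36, with 8 of 44 at least 1.5-fold higher in CD94-KO and 0 lower. Over all genes measured the median was -0.00, with 3.67% higher and 6.3% lower, the shares to set beside each list count. The 8 type I interferon genes that were higher were Ifit2, Ifit3, Ifit3b, Cmpk2, Ddx58, Slfn4, Slfn8 and Ly6c2, the first 3 being interferon-induced tetratricopeptide proteins. Ifit2 had 38.2 CPM in CD94-KO cells and 14.4 CPM in WT. Without the deepest cells 8 of 43 were higher, with a median of 0.28, and Ly6c2 was not among them (0.51). Without the deepest WT barcode alone, Ly6c2 (0.57) and Ddx58 (0.55) were under 1.5-fold, and with each cell weighed the same Ly6c2 was (0.55). The same list had medians of 0.47 in Arg1-high, 0.24 in double-high and 0.27 in double-low cells. The interferon gamma list had a median of 0.20 with 3 of 35 higher, and the inflammatory list 0.19 with 3 of 28 higher (Ccl5, Fpr2 and Saa3). MHC class I genes were close, with a median of 0.12 and 0 of 23 past 1.5-fold either way. Monocyte-origin genes had a median of 0.21 with 7 of 28 higher and 1 lower. The 7 were Ly6c2, Ly6i, Clec4d, F13a1, Ifitm6, S100a8 and S100a9. Ly6i is a marker of the gate, and S100a8 and S100a9 are also neutrophil markers. As given above, few CD94-KO cells held most S100a9 UMIs. The lower one was Ly6c1, which was higher without the deepest cells (0.78). Without those cells 5 of 28 were higher and 1 lower, with a median of 0.19, and Ly6c2 (0.51), Clec4d (0.58), F13a1 (0.52) and Ifitm6 (0.46) no longer reached 1.5-fold. Slc7a2, a cationic amino acid transporter that takes up arginine, was lower, with 74.4 CPM in CD94-KO cells and 118 CPM in WT (ratio 0.629, 0.518 to 0.763). With each cell weighed the same, the log2 difference of Slc7a2 was -0.44, under 1.5-fold. The arginine list as a whole had a median of -0.01, with 0 of 18 genes higher and 3 lower. The proliferation list had a median of -1.0 with 13 of 17 lower, and 0.05 with 1 of 12 lower without the deepest cells; the deepest WT barcode held 17.2% of these WT UMIs.

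Within the gate, cells with and without Nos2 were set side by side, a split chosen after the values were seen. Cells with at least 3 Nos2 UMIs numbered 99 in CD94-KO and 25 in WT, with medians of 11465 and 12493 UMIs, and cells with none 143 and 91, with medians of 10620 and 10921. Nos2 cells held more Ccl5, 2135 against 734 CPM in CD94-KO and 2193 against 383 CPM in WT. Ly6i was 1079 against 440 CPM in CD94-KO and 874 against 319 CPM in WT, and Cfb 232 against 122 CPM and 258 against 84.5 CPM. Slc7a2 was 137 against 29.7 CPM in CD94-KO and 277 against 78.5 CPM in WT. Grina was 959 against 286 CPM in CD94-KO and 690 against 195 CPM in WT, and Upp1 531 against 165 CPM and 490 against 176 CPM. Fpr2 was 159 against 36.5 CPM in CD94-KO and 119 against 25.6 CPM in WT. Gbp2 hardly differed, at 1387 against 1340 CPM in CD94-KO and 1212 against 1147 CPM in WT. Cxcl9 was 4281 against 3719 CPM in CD94-KO and 5556 against 3580 CPM in WT, values that the selection on the sum also bears on. The marker Rsad2 had opposite directions, at 195 against 171 CPM in CD94-KO and 74.2 against 154 CPM in WT. Cxcl10 was lower in cells with Nos2, at 519 against 1324 CPM in CD94-KO and 1080 against 1415 CPM in WT. In both libraries, cells with Nos2 were thus past 1.5-fold in Ccl5, Ly6i, Cfb and Slc7a2 and within it in Gbp2. Interferon-induced genes had no shared direction in this split.

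Ccl17 was lower in cells with Nos2, at 24.2 CPM against 151 CPM in cells without it in CD94-KO, and 35.5 against 241 CPM in WT. Ccr7, a homing receptor of mature dendritic cells, had 8.66 against 57.6 CPM in CD94-KO and 12.9 against 80.2 CPM in WT. The 4 markers of mature regulatory dendritic cells (Ccr7, Fscn1, Ccl22 and Cacnb3) summed to 59.2 CPM in the CD94-KO gate and 117 CPM in the WT gate, and 5 cells held 68.5% and 84% of these UMIs. The part of such cells in the difference was not tested. Rank correlations across thinned cells, which share their library and depth, were 0.35 and 0.27 between Nos2 and Ly6i in 276 CD94-KO and 120 WT cells, and -0.03 and 0.16 between Nos2 and Cxcl9. The selection on the sum of Nos2 and Cxcl9 bears on the second pair, since a cell without Nos2 had to hold at least 10 Cxcl9 UMIs, and nothing is read from it.

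**Figure D5:**
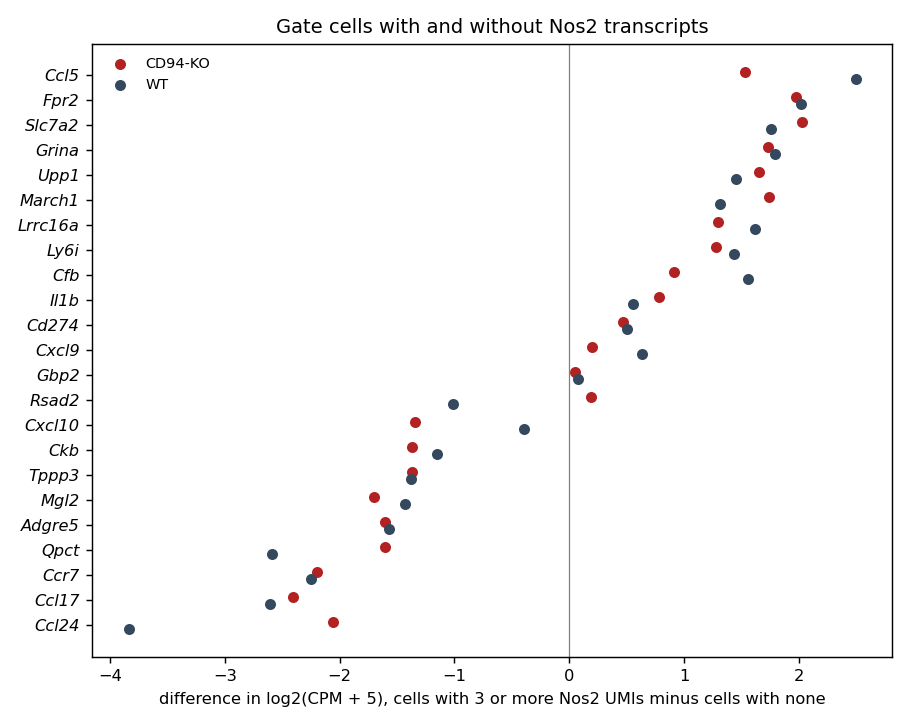
Difference in log2(CPM + 5) between gate cells with at least 3 Nos2 UMIs and gate cells with none, for the 7 genes of largest excess, the 8 of largest deficit and 8 further genes, with CD94-KO in red and WT in dark blue. Ccl5 lies at 1.53 and 2.50, Gbp2 at 0.05 and 0.08, and Ccl17 at -2.41 and -2.61.

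C1q divided the gate in another way. Cells with at least 20 UMIs of C1qa, C1qb and C1qc together numbered 82 in CD94-KO and 38 in WT, and cells with at most 2 numbered 148 and 60. C1q-rich cells held more Pf4, 86.3 against 9.97 CPM in CD94-KO and 65.3 against 4.66 CPM in WT, and more Ccl8, 110 against 2.49 CPM and 53.2 against 1.55 CPM. Hp, haptoglobin, was lower in C1q-rich cells, at 52.4 against 160 CPM in CD94-KO and 41.2 against 126 CPM in WT, as was Slpi, a secreted protease inhibitor, at 250 against 565 CPM and 131 against 332 CPM. Nos2 and Ly6i did not follow this split in a shared direction: Nos2 had 352 CPM in C1q-rich and 406 CPM in C1q-poor cells of CD94-KO, and 199 and 141 CPM in WT. The C1q genes are part of the selection.

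Markers of other cell types were summed in the gate. T cell markers were limited to 1 detected gene of 4, at 2.07 CPM in CD94-KO cells and 1.88 CPM in WT, since the selection barred Cd3d, Cd3e and Cd3g. NK markers (5 of 5 detected) summed to 205 CPM in CD94-KO cells and 229 CPM in WT, neutrophil markers to 203 CPM (7 of 7) and 95.8 CPM (5 of 7, with Cxcr2 and Retnlg at 0). Markers of plasmacytoid dendritic cells summed to 392 and 334 CPM, of which Bst2, an interferon-induced gene that is also in the type I list, made up 390 CPM in CD94-KO cells and 326 CPM in WT cells. Markers of cDC1 summed to 18.1 and 16.9 CPM and of cDC2 to 29.6 and 22.5 CPM. B cell markers summed to 2.67 and 8.14 CPM and mast cell markers to 1.18 and 0 CPM. Fibroblast markers summed to 5.92 CPM in CD94-KO cells and 64.5 CPM in WT, and epithelial markers to 0.889 and 36.3 CPM, with 92.2% and 87.9% of the WT UMIs in the deepest WT barcode. The part of other cells in the differences between genotypes was not tested.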

How the data were processed

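Droplet data of 1 library per genotype were analysed from the deposited matrices of UMI counts per gene and barcode, which the authors deposited (Cell Ranger 5.0.0 is named in the file headers). The submitters' processing notes name the build mm10 and Seurat 4.0 without a role, and the annotation release is not given in the sources used here. Values are raw counts summed over the cells of each gate and library and scaled to CPM. Differences are in log2(CPM + 5) for genes with at least 20 UMIs over the sums compared. Intervals are 95% Poisson, Clopper-Pearson or exact binomial. No doublet caller was run, but barcodes with a Cd3 UMI were left out. Genes named are the 12 (genotypes) or 10 (gates) with the largest difference each way, at 100 or more UMIs and 50 CPM, and list members by level or past 1.5-fold. These rankings left out mitochondrial, ribosomal protein, haemoglobin, immunoglobulin and T cell receptor genes, Xist, Y-linked genes and genes with Gm or Rik names. Gates, members and the 23 gene lists (644 symbols with marker lists, 12 not used) were chosen with earlier results of these data known. Scripts were tested on simulated data. Python 3.11.15, numpy 2.4.6, scipy 1.17.1, pandas 2.3.3, matplotlib 3.10.9, and R 4.3.3 with edgeR 4.0.16 (TMM scaling only) were used.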

Additional observations from a re-analysis of the deposited data

Results flagged for a closer look

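The genes here lay on opposite sides of another gate in the CD94-KO and WT libraries, by at least 1.5-fold each way, and the difference was not tested. Values are gate minus the other gate in log2(CPM + 5). Against Arg1-high cells, Ccl8 differed by -1.66 in CD94-KO and 0.96 in WT, Gzmc by 1.42 and -2.32, Saa3 by 1.66 and -0.79, Stmn1 by -0.86 and 0.83, and Tpm1 by -0.78 and 0.93. As given above, few cells held most gate UMIs of Gzmc in CD94-KO and of Stmn1 and Tpm1 in WT. Inside the gate, CD94-KO minus WT was -1.71 for Tpm1 with every cell and 0.32 without the deepest WT barcode.

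Against double-high cells, Birc5 differed by -1.06 in CD94-KO and 0.80 in WT, Ccl8 by 1.59 and -0.63, Gzmc by 3.33 and -3.33, S100a8 by 1.16 and -2.20, S100a9 by 2.75 and -3.69, and Srm by -0.93 and 0.71. For S100a9, 5 cells held 94.2% of CD94-KO gate UMIs. Few cells also held most gate UMIs of Gzmc in CD94-KO and of Srm in WT. The deepest WT barcode held 31.8% of the WT gate UMIs of Birc5.

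Against double-low cells, Ccl12 differed by 0.73 in CD94-KO and -0.96 in WT, Ccl17 by -0.92 and 1.42, Gzmc by 1.09 and -3.44, Ifit2 by 0.80 and -0.59, Mgl2 by -0.90 and 1.12, Mt2 by -0.94 and 1.37, and S100a9 by 1.21 and -1.59. Few cells held most gate UMIs of Ccl17 in both libraries, of Gzmc and S100a9 in CD94-KO, and of Mt2 in WT.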

How the results depend on the processing

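With 1 library per genotype, a difference between genotypes and one between libraries cannot be told apart, and depth limits genes under 20 UMIs. Of 93 alternatives for the summary values 79 were labelled the same, 14 moved and 0 reversed. Shares were set against the intervals given above. Gene counts have no interval and were called the same within 1.5-fold. The spread used for list medians is not given here. Reversal means a change of sign, which shares and gene counts cannot show, so the 0 reversed says nothing about them. The gate's share of macrophage-gate cells was 21% in CD94-KO and 19.9% in WT with a Nos2 plus Cxcl9 minimum of 5 UMIs, 13.3% and 11.5% with 20, and 13.6% and 12.1% with an Arg1 limit of 3. Genes lower in CD94-KO numbered 230 without the 5% deepest cells, 247 without the deepest WT cell (chosen after seeing the data), 332 with each cell weighed the same, 835 with no filter, 151 with a minimum of 100 UMIs and 881 with a pseudocount of 1. Genes higher numbered 156 with the minimum of 100 UMIs and 621 with a pseudocount of 1. Of 645 list values 14 moved and 1 reversed, and of 1275 gene values 204 moved and 21 reversed. Reversed log2 differences were as follows. With the minimum of 5, Ccl12 had -0.81. In thinned cells Areg had -0.29, Ccl3 0.20, Cxcl3 -0.82, F13a1 -0.34, Ifitm6 -0.56, Ly6c1 0.00, Mki67 0.02 and Rrm2 0.41. Without the 5% deepest cells the proliferation list had 0.05, Ly6c1 0.78, Mcm3 0.28, Mcm6 0.55, Mki67 0.15, Rrm2 0.42, Top2a 0.29, Tpm1 0.29 and Tyms 0.02. With each cell weighed the same Ly6c1 had 0.10. Without the deepest WT cell Ly6c1 had 0.76, Timp2 0.15 and Tpm1 0.32. The cause was not tested. No paired analysis was possible because each genotype has 1 library and no result comes from a test.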
